A study of Sus scrofa with 16 samples.

Results

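Basement membrane genes were followed in pig left ventricle after ischemia/reperfusion (IR) injury. The genes were listed by symbol as collagen IV, laminin, nidogen and perlecan genes of the basement membrane, by a rule that uses no measured value but was set with earlier results of these data known: *COL4A1*, *COL4A2*, *LAMA2*, *LAMA4*, *LAMB1*, *LAMB2*, *LAMC1*, *NID1*, *NID2* and *HSPG2*. Of these 10 genes, 8 had a line among the 22629 genes measured. *COL4A1* and *LAMA2* had no line under their symbol and were not analysed here, so the partner chain of *COL4A2* and the other main laminin alpha chain of muscle are missing from what follows. The animals were White Yorkshire-Landrace farm pigs operated on at 1 month of age. In 4 IR pigs the left anterior descending coronary artery was occluded for 1 h and then reperfused. In 4 sham pigs the chest was opened and the suture placed with no occlusion. The paper states heparin for the IR pigs only, and it describes some injury response to the surgery itself in sham pigs. Hearts were taken 4 weeks after surgery, and every pig gave a scar zone sample, from below the occlusion site, and a border zone sample next to it, 16 samples in all. In IR hearts the scar zone piece mixed scar with muscle beside it, and in sham hearts it was muscle from the matching site, with no occlusion. Each group held 2 females (IR pigs 2 and 14, sham pigs 4 and 5) and 2 males (IR pigs 9 and 11, sham pigs 12 and 13).

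A basement membrane is a thin sheet of extracellular matrix that underlies endothelium and wraps each cardiomyocyte, smooth muscle cell and pericyte. Laminins, built from an alpha, a beta and a gamma chain, assemble at the cell surface and bind integrins and dystroglycan. Collagen IV forms a second network, and nidogens and the heparan sulfate proteoglycan perlecan join the networks to each other. In the heart these sheets carry force between cardiomyocytes and matrix and support capillary walls, and they differ from the fibrillar collagen I and III matrix that fibroblasts lay down in a scar.

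Estimated counts summed to between 15427663 and 49045206 per library. The measured basement membrane genes had between 3098 and 48991 counts each in every library and together took between 0.0582% and 0.117% of the TPM (a transcript's share of the library after scaling for its length). All 8 passed the filter on low counts in every comparison. The scar zone libraries of the IR males stood apart in the fibroblast markers, 10 genes that include *COL1A1* and *COL3A1*, whose summed TPM was 10334 and 10371, against 1407 and 1805 in the IR females and 1791 to 2457 in sham pigs. Among the females, IR pig 14 held in its scar zone library 4.49 CPM (counts scaled to a common library size by TMM) of the Y-linked *DDX3Y*, where the other 7 female libraries had 0.389 to 1.23 CPM and the 8 male libraries 68.4 to 103 CPM. The scar zone counts of the members and of the gene lists are therefore also given without pig 14 and within each sex. In bulk tissue, fewer cells of a type and less RNA per cell cannot be told apart.

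Per length, *LAMB2* was the highest of the genes measured, with a mean of 177 TPM over the 16 libraries (SD 24.4). *COL4A2* followed with 149.9 TPM, then *LAMC1* with 116 TPM, *HSPG2* with 101 TPM and *NID2* with 98.2 TPM. *NID1* at 80.5 TPM, *LAMA4* at 74.0 TPM and *LAMB1* at 56.6 TPM were the lowest. *LAMB2* exceeded *COL4A2*, *COL4A2* exceeded *LAMC1*, and *LAMA4* exceeded *LAMB1* in 16 of 16 libraries each. *LAMC1* exceeded *HSPG2* in 14 libraries and *NID2* exceeded *NID1* in 15, whereas *HSPG2* and *NID2* (10 of 16) and *NID1* and *LAMA4* (11 of 16) changed places between libraries. Over the 16 libraries the coefficient of variation ran from 13.8% for *LAMB2* to 23.9% for *LAMB1*.

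**Figure D1:**
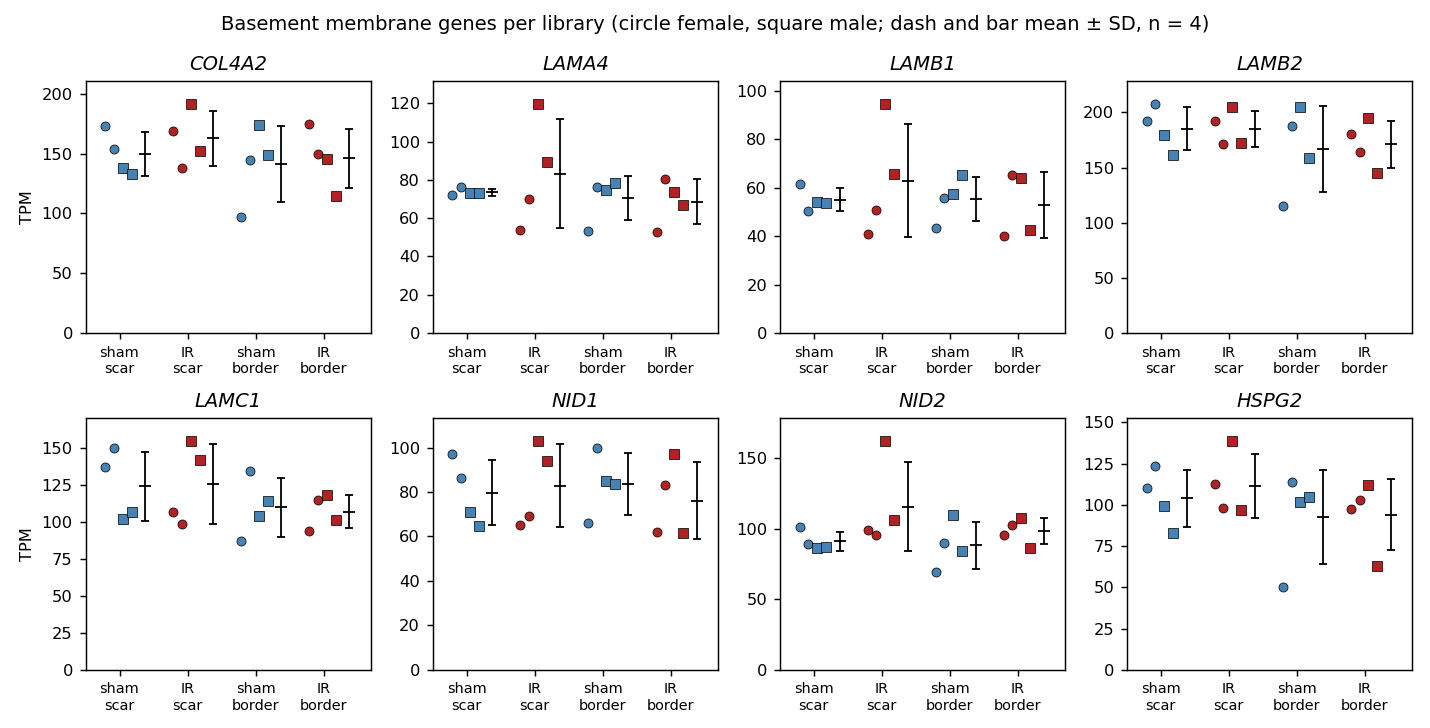
TPM of the 8 basement membrane genes in every library, by surgery and zone, with the mean and SD of 4 pigs beside each group. Circles are females and squares males. The groups overlap for every gene on this scale. IR pig 9 (a male) gives the highest IR scar zone TPM of each gene, but in CPM the lowest for *COL4A2* (1142) and *LAMB2* (654). Sham pig 4 gives the lowest sham border zone value of each gene.

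Across the scar zone, no difference between IR and sham pigs in these genes passed the test. None of the 8 reached a raw p, one not adjusted for the number of genes, of 0.05 or less (edgeR quasi-likelihood test), where 11.2% of the 14023 genes tested did, and none was called with an adjusted p of 0.05 or less and a fold change of at least 2, where 0% of all genes were. DESeq2 called 52 genes by that rule and limma on TPM 3, none of them a member. The count of members at this raw p was also 0 with DESeq2 and with limma. The log2 fold changes ran from -0.18 for *LAMB2* to 0.19 for *NID2*, 1 of them positive and 7 negative, with a median of -0.08 beside 0.03 for all genes tested. The 95% intervals spanned fold changes from 0.697 to 1.35, so a 2-fold difference in either direction lay outside the interval of every gene.

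Of the 8 genes, 0 had a raw p of 0.05 or less in the border zone, against 3.78% of 13728 genes tested. Their log2 fold changes lay between -0.16 for *NID1* and 0.16 for *NID2*, with a median of -0.04 beside 0.00 for all genes, and their 95% intervals between 0.699-fold and 1.40-fold. DESeq2 and limma on TPM also gave 0 members at that p-value.

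**Figure D2:**
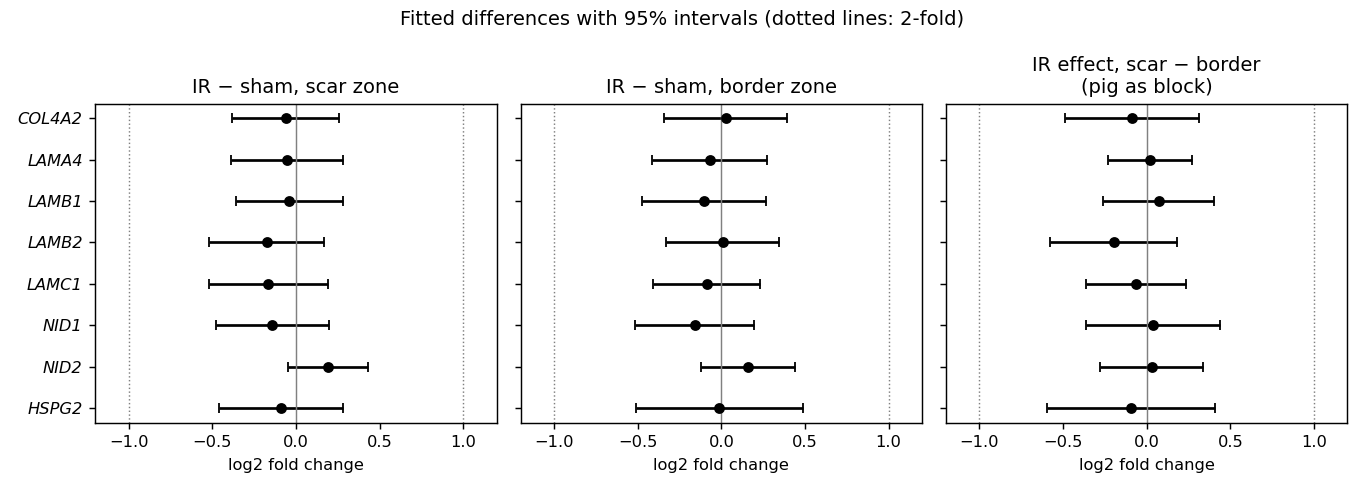
Log2 fold change of each gene (horizontal axis) with its 95% interval, of the IR over the sham group by zone, and for the difference of the IR effect between the zones with the pig as a block. Dotted lines mark a 2-fold difference, which no interval reaches, and every interval includes 0.

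*COL4A2* encodes the alpha 2 chain of collagen IV, the network-forming collagen of all basement membranes. Its scar zone values were 1499.8 and 1299.7 CPM in the IR females and 1142 and 1198 in the IR males, against 1432 and 1459 in the sham females and 1200.1 and 1245 in the sham males. The border zone values were 1532 and 1305 CPM in the IR females and 1183 and 1109.9 in the IR males, against 959 and 1308 in the sham females and 1459 and 1314 in the sham males. The females of both surgery groups lay above the males of the same group in the scar zone, while IR and sham values overlapped in both zones. The fitted log2 fold changes were -0.06 (SE 0.14, adjusted p = 0.86) for the scar and 0.03 (SE 0.17, adjusted p = 0.995) for the border zone (quasi-likelihood test of edgeR, Benjamini-Hochberg adjusted).

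*LAMA4* encodes the alpha 4 chain, found in the laminins of vessels and of the cardiomyocyte surface. In the scar zone it had 242 and 336 CPM in the IR females and 363 and 359 in the IR males, against 303 and 368 in the sham females and 323 and 347 in the sham males. Border zone libraries held 236 and 358 CPM in the IR females and 305 and 331 in the IR males, against 269.6 and 352 in the sham females and 319.7 and 351 in the sham males. IR pig 2 was the lowest library of either zone and the other IR pigs lay within or near the sham range. EdgeR gave a log2 fold change of -0.05 for the scar zone (SE 0.15, adjusted p = 0.888) and of -0.07 for the border zone (SE 0.16, adjusted p = 0.993).

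*LAMB1* and *LAMB2* encode alternative beta chains, of which the beta 2 chain is prominent in mature muscle. *LAMB1* in the scar zone had 179 and 237 CPM in the IR females and 279 and 255 in the IR males, against 253 and 236 in the sham females and 234 and 249 in the sham males. The sham values spanned a narrow range, and the IR males lay above it while IR pig 2 lay below it. For *LAMB1* the log2 fold change came to -0.04 (scar zone, SE 0.14, adjusted p = 0.915) and -0.10 (border zone, SE 0.17, adjusted p = 0.99) by the edgeR quasi-likelihood test. *LAMB2* in the scar zone had 914 and 863 CPM in the IR females and 654 and 724 in the IR males, against 849.7 and 1049 in the sham females and 838 and 809 in the sham males. Both IR males lay below every sham pig and both IR females within the sham range. In the border zone *LAMB1* had 174 to 282 CPM in IR and 212 to 284 CPM in sham pigs, and *LAMB2* had 751 to 847 and 611 to 923 CPM, so the groups overlapped for both. For *LAMB2* the scar zone log2 fold change of -0.18 (SE 0.15, adjusted p = 0.632) was the most negative of the 8, and that of the border zone was 0.01 (SE 0.15, adjusted p = 0.997, edgeR).

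*LAMC1* encodes the gamma 1 chain that most laminins share. Scar zone values were 729 and 702 CPM in the IR females and 706 and 845 in the IR males, against 857 and 1031 in the sham females and 668 and 767 in the sham males. Border zone libraries held 633 and 734 CPM in the IR females and 723 and 756 in the IR males, against 659.9 and 921 in the sham females and 673 and 773 in the sham males. The sham females were the highest of the 8 scar zone libraries and sham pig 12 the lowest, with all IR pigs between them. Its log2 fold changes with edgeR were -0.17 (scar zone, SE 0.16, adjusted p = 0.657) and -0.09 (border zone, SE 0.14, adjusted p = 0.99).

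*NID1* and *NID2* encode the nidogens, which bind the laminin gamma 1 chain and collagen IV. *NID2* was the gene with the clearest order of the groups, with 401 and 404 CPM in the IR females and 436 and 382 in the IR males, against 352 and 354 in the sham females and 332 and 375 in the sham males in the scar zone. All 4 IR pigs lay above all 4 sham pigs, which was also so for 2.2% of the genes tested in this zone, and none of the other 7 genes was separated in either direction, which in the lower direction held for 2.65% of genes. The mean was 406 ± 22.6 CPM in IR and 353 ± 17.4 in sham pigs (SD, n = 4 each). The exact permutation test of this gene, 1 of 16 such tests over 8 genes and 2 zones, gave p = 0.0286, the smallest that 4 against 4 pigs allow. The fit across all genes gave a log2 fold change of 0.19 (SE 0.11, adjusted p = 0.495, quasi-likelihood test of edgeR, Benjamini-Hochberg adjusted), so the difference did not pass the test. In the border zone *NID2* had 375 and 401 CPM in the IR females and 392 and 389 in the IR males, against 297 and 345 in the sham females and 416 and 336 in the sham males. There the IR values lay inside the sham range, which was widened by pig 4 at the low end and pig 12 at the high end, and the log2 fold change was 0.16 (SE 0.13, adjusted p = 0.988). On the TPM scale the scar zone groups overlapped, with 95.3 to 162 TPM in IR and 86.3 to 101 TPM in sham pigs.

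*NID1* went the other way without passing the test. Its scar zone values were 303 and 348 CPM in the IR females and 327 and 395 in the IR males, against 425 and 433 in the sham females and 329 and 319 in the sham males. Border zone values were 286 and 386 CPM in the IR females and 426 and 321 in the IR males, against 339.7 and 475 in the sham females and 381 and 387 in the sham males. Sham pig 5 had the highest value of each zone, and IR pig 2 the lowest. EdgeR put its log2 fold change at -0.14 for the scar zone (SE 0.15, adjusted p = 0.692) and at -0.16 for the border zone (SE 0.16, adjusted p = 0.988).

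*HSPG2* encodes perlecan, the large heparan sulfate proteoglycan of basement membranes. Scar zone values were 1243 and 1152 CPM in the IR females and 1033 and 955 in the IR males, against 1135 and 1464 in the sham females and 1076 and 967 in the sham males. In the border zone it had 1069.5 and 1124 CPM in the IR females and 1139 and 765 in the IR males, against 619 and 1284 in the sham females and 1069.5 and 1156 in the sham males. Sham pig 4 and IR pig 11 were the lowest border zone libraries, and sham pig 5 the highest of both zones. The log2 fold changes from edgeR were -0.09 for the scar zone (SE 0.16, adjusted p = 0.823) and -0.01 for the border zone, where its SE of 0.22 was the largest of the 8 genes (adjusted p = 0.997).

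Ratios of genes within a library do not depend on the scaling between libraries. Of the 4 ratios planned, *COL4A1* over *COL4A2* and *LAMA2* over *LAMA4* could not be computed, and the others were compared in 2 zones. The *NID1* to *NID2* ratio of TPM in the scar zone was 0.657 and 0.727 in the IR females and 0.635 and 0.888 in the IR males, against 0.959 and 0.972 in the sham females and 0.821 and 0.739 in the sham males. In IR pigs 2, 14 and 9 the ratio lay below every sham value, and in pig 11 it lay inside the sham range. The mean log2 ratio of IR minus that of sham pigs was -0.27 in the scar zone (exact permutation test, two-sided, n = 4 each, p = 0.114) and -0.32 for border samples (exact permutation p = 0.0857). Neither passed after adjustment over the 4 comparisons (adjusted p = 0.229 for both). The *LAMB1* to *LAMB2* ratio of TPM ran from 0.213 in the IR scar zone of pig 2 to 0.463 in that of pig 9, and the mean log2 ratio of IR minus sham pigs was 0.13 for scar and -0.15 for border samples (exact permutation p = 0.657 and 0.571). The sham values lay inside the range of the IR values in the scar zone.

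**Figure D3:**
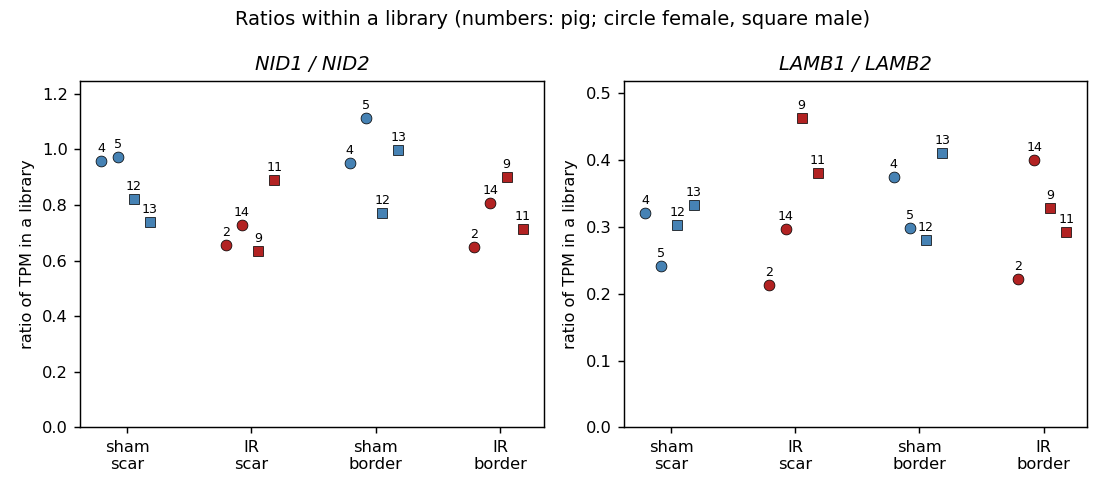
Ratio of TPM within each library for *NID1* over *NID2* and for *LAMB1* over *LAMB2*, by surgery and zone, with the pig number at each point. For *NID1* over *NID2* in the scar zone, 3 of 4 IR pigs sit below every sham pig, and for *LAMB1* over *LAMB2* the IR scar zone spans a wider range than the sham scar zone.

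Within each sex the scar zone gave different backgrounds for the same 8 genes. These fits, of 2 IR and 2 sham pigs each, were chosen after the values per pig were seen. Library depth went with surgery within each sex. Estimated counts summed to 36509911 and 34251150 in the IR males against 27088652 and 25309107 in the sham males. They summed to 17595342 and 15427663 in the IR females against 20725478 and 23926151 in the sham females. The part of depth in the results within a sex was not tested. In the males alone, 27% of 14591 genes had a raw p of 0.05 or less and 4.27% passed the adjusted threshold with a fold change of 2, yet 0 of the 8 basement membrane genes had a raw p of 0.05 or less (edgeR quasi-likelihood test). Their log2 fold changes ran from -0.27 for *LAMB2* to 0.20 for *NID2* with a median of 0.10, beside 0.01 for all genes, and their 95% intervals from 0.649-fold to 1.50-fold. In the same males the fibrillar collagen gene *COL1A1* had 5651 and 9528 CPM in IR and 908 and 961 in sham pigs, 8.06-fold higher (log2 fold change 3.01, SE 0.30, adjusted p = 0.0148, edgeR). Of the 9 endothelial markers, 0 were higher and 3 lower in the males at this raw p, with a median log2 fold change of -0.32, where 12.3% of all genes were lower, and the part of vessel content in these values was not tested. The TPM ratio of *COL4A2* to *COL1A1*, a ratio added after the data were seen, was 0.121 and 0.0751 in the IR males, 0.595 and 0.858 in the IR females and 0.606 to 0.790 in sham pigs. Over all 8 pigs its mean log2 value, IR minus sham, was -1.46 in the scar zone (exact permutation p = 0.229, adjusted p = 0.857 over 4 comparisons). The ratio to *COL3A1*, the other fibrillar collagen gene compared, was 0.0415 and 0.0388 in the IR males, 0.246 and 0.261 in the IR females and 0.163 to 0.182 in sham pigs, so the IR males lay below and the IR females above every sham pig (-0.76, exact permutation p = 0.429, adjusted p = 0.857).

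Within the females alone, *LAMC1* (log2 fold change -0.42, SE 0.14) and *NID1* (-0.42, SE 0.14) had a raw p of 0.05 or less, 2 of 8 genes, against 10.3% of the 13763 genes tested and 4.92% in the lower direction. Neither passed the adjustment (adjusted p = 0.419 and 0.42, quasi-likelihood test of edgeR, Benjamini-Hochberg adjusted). Both IR females lay below both sham females for each gene. The genes were picked by their p in these same libraries, and the share of all genes ordered this way was not counted. The test of the difference itself, the IR effect in males minus that in females, gave 0.57 for *NID1* (SE 0.20, adjusted p = 0.184) and 0.52 for *LAMC1* (SE 0.22, adjusted p = 0.259, both by edgeR), again 2 of 8 genes where 18.7% of all genes had a raw p of 0.05 or less. For border zone samples, 0 of 8 genes reached that p-value for the difference between the sexes, where 6.89% of genes did. Without IR pig 14, the scar zone log2 fold changes ran from -0.22 for *LAMB2* to 0.19 for *NID2* and 0 of 8 genes had a raw p of 0.05 or less, where 10.3% of 14283 genes were higher and 6.38% lower at that p-value.

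**Figure D4:**
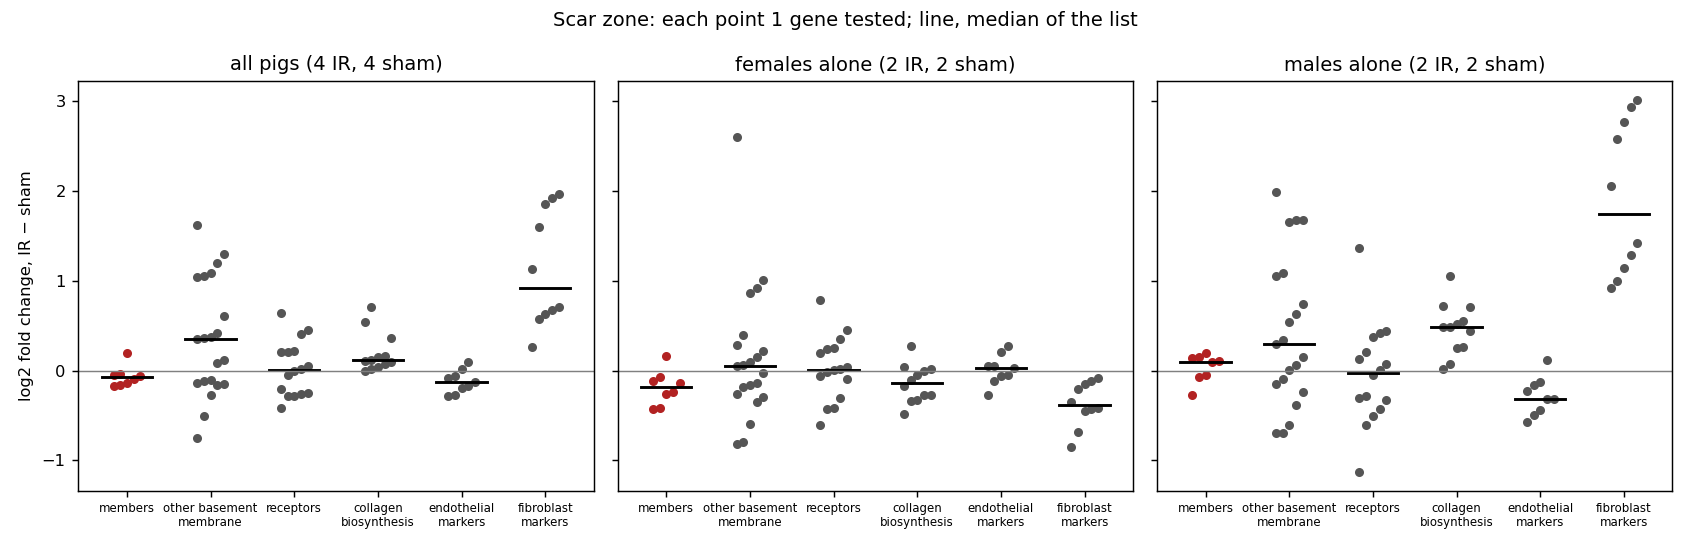
Scar zone log2 fold change, IR over sham (vertical axis), for each gene of 6 lists, in all pigs, in females alone and in males alone, with the median of each list as a line. The 8 basement membrane genes (red) stay between -0.42 and 0.20 in the 3 panels, while the fibroblast markers have medians of 0.92 in all pigs, -0.38 in females and 1.74 in males.

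The zone comparisons used both samples of each pig. Subtracting the border zone IR effect from the scar zone IR effect gave values that ran from -0.18 for *LAMB2* to 0.07 for *LAMB1* on the log2 scale, with 0 of 8 genes at a raw p of 0.05 or less, against 2.22% of 14278 genes (edgeR). With the pig as a replicate block it ran from -0.20 to 0.07, again with 0 of 8, where 6.99% of all genes had such a p-value. Between the zones of IR pigs, 0 of 8 genes reached it, where 4.35% of 14170 genes did, or 11.3% with the block. Between the zones of sham pigs, 0 of 8 did, where 0.819% of 13803 genes did, or 4.77% with the block.

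Pig by pig, the zones differed most in sham pig 4, where all 8 genes were higher in the scar zone, with log2 differences of CPM between 0.17 for *LAMA4* and 0.87 for *HSPG2* and a median of 0.35. In the other 7 pigs the median difference lay between -0.09 and 0.14. In IR pigs 2, 9, 11 and 14, 7, 3, 6 and 3 of the genes were higher in the scar zone. None of the 8 genes was higher in the scar zone in all 4 IR pigs.

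**Figure D5:**
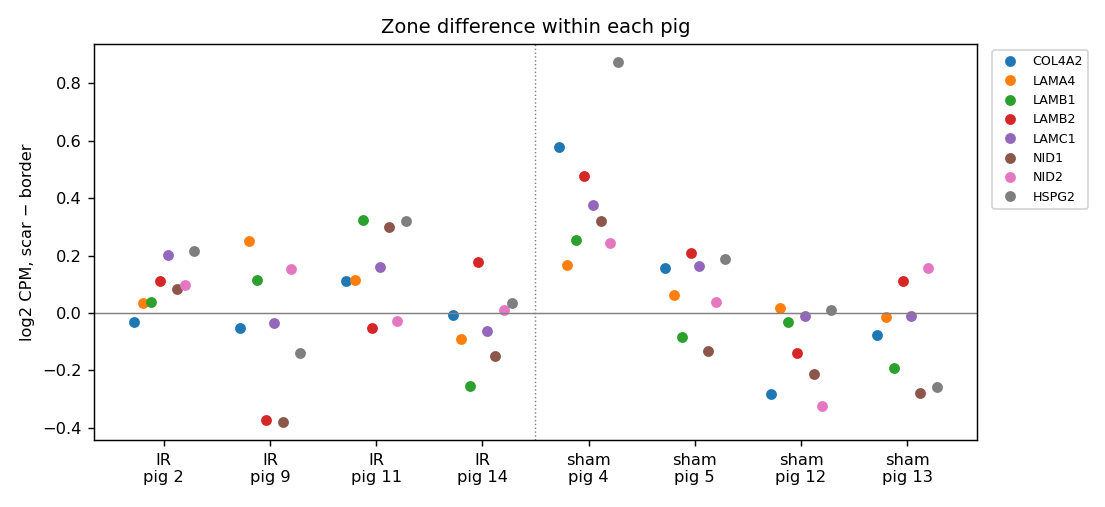
Log2 CPM of the scar zone minus that of the border zone within each pig (vertical axis), each point 1 gene. All 8 points of sham pig 4 lie above 0, and those of every other pig fall on both sides of it.

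On the TPM scale the direction of most genes depended on the scaling. In the scar zone limma on log2(TPM + 1) put the median of all genes at 0.15, and the log2 differences of the 8 genes ran from 0.00 for *LAMB2* to 0.31 for *NID2*. Relative to the shift of all genes, they ran from -0.15 for *LAMB2* to 0.16 for *NID2*, and *NID2* alone was above 0.

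Other basement membrane components were taken from a list of 25 genes, 21 of which passed the filter. In the scar zone 6 of the 21 were higher and 2 lower in IR pigs at a raw p of 0.05 or less, where 6.57% of all genes were higher and 4.64% lower, and 0 passed the adjusted p-value (edgeR, lowest adjusted p = 0.438). On the log2 scale the median fold change over the 21 genes was 0.35, beside 0.03 for all genes. Without IR pig 14, 8 were higher and 3 lower, where 10.3% of all genes were higher and 6.38% lower. The females alone gave 4 higher and 2 lower, where 5.4% of genes were higher and 4.92% lower, and the males alone 6 higher and 4 lower, where 14.6% and 12.3% were. *LAMA3* and *COL15A1* were among the 3 genes with the lowest p. *LAMA3*, an alpha chain of epithelial laminin, had 0.45 to 1.17 TPM in IR and 0.238 to 0.384 in sham pigs (log2 fold change 1.05, SE 0.30, adjusted p = 0.438, edgeR). All 4 IR pigs lay above all 4 sham pigs in TPM and in CPM, which in CPM was so for 2.2% of genes in this zone. The level of *LAMA3* was far below that of the 8 genes above.

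*COL15A1*, a collagen at the outer face of muscle and capillary basement membranes, had 328 and 350.2 CPM in the IR females and 267 and 233 in the IR males, against 381 and 474 in the sham females and 385 and 421 in the sham males. All IR pigs lay below all sham pigs on this scale, which was so for 2.65% of genes in this zone, but in TPM the groups overlapped, with 66.7 to 106 TPM in IR and 103 to 120.2 TPM in sham pigs. EdgeR gave a log2 fold change of -0.50 (SE 0.16, adjusted p = 0.438) for scar and of -0.36 (SE 0.17, adjusted p = 0.988) for border samples. Further genes with a raw p of 0.05 or less, named after their values were seen, were higher: *LAMC3* (1.61), *SMOC2* (1.29), *SPARC* (1.19), *SMOC1* (1.09) and *TINAGL1* (0.38 on the log2 scale). *SMOC1* was at 0.07 in the females and 1.67 in the males alone, *SMOC2* at 0.22 and 1.65, and *LAMC3* at 2.59 and 1.09, of which only *SMOC2* in the males passed the adjusted p-value (adjusted p = 0.0186, edgeR). *SPARC*, a collagen-binding matrix glycoprotein, had 4746 and 3741 TPM in the IR males, 965 and 796 TPM in the IR females and 772 to 1063 TPM in sham pigs. It was 3.95-fold higher in the males alone (adjusted p = 0.0133) with a log2 fold change of -0.16 in the females (adjusted p = 0.73, edgeR). In the border zone 1 of 21 genes, *TINAGL1*, had a raw p of 0.05 or less (log2 fold change 0.63, adjusted p = 0.988, edgeR), where 2.09% of all genes were higher at that p-value, and 0 were lower, where 1.69% were.

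Receptors of the basement membrane and the dystrophin complex linked to them gave 1 of 16 genes higher and 0 lower at this raw p for scar zone samples, and 0 for border zone samples, where 6.57% and 4.64% of all genes were higher and lower in the scar zone. The gene was *DDR1*, a collagen receptor tyrosine kinase, with 24.7 to 36.4 TPM in IR and 19.2 to 24.4 in sham pigs (log2 fold change 0.40, SE 0.13, adjusted p = 0.438, edgeR). *ITGA6*, a laminin-binding integrin chain, had a log2 fold change of -0.29 (SE 0.13, adjusted p = 0.446), and *BCAM*, a receptor of laminins with the alpha 5 chain, -0.41 (SE 0.20, adjusted p = 0.464). The median of the list was 0.01, beside 0.03 for all genes. In the males alone 1 receptor gene was higher and 6 were lower, where 14.6% and 12.3% of all genes were. The higher one, named after its value was seen, was *ITGB4*, an integrin beta chain of epithelial laminin adhesions, which passed the adjusted p-value (1.36, adjusted p = 0.0404, edgeR) and was at -0.60 in the females (adjusted p = 0.526). The females alone gave 1 higher and 0 lower, where 5.4% and 4.92% of all genes were, and all pigs without IR pig 14 gave 2 higher and 4 lower, where 10.3% and 6.38% were.

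Among 12 genes of collagen biosynthesis and crosslinking, at this raw p 1 was higher and 0 lower in scar zone samples, where 6.57% and 4.64% of all genes were, with a median log2 fold change of 0.11 beside 0.03 for all genes. *P4HA1*, a prolyl hydroxylase subunit, had 30.9 and 25.4 TPM in the IR males, 12.2 and 13.9 TPM in the IR females and 9.80 to 13.3 TPM in sham pigs (0.53, SE 0.20, adjusted p = 0.438, edgeR). *PLOD2*, a lysyl hydroxylase, had a log2 fold change of 0.71 (SE 0.36, adjusted p = 0.479) and *CRTAP*, a partner of a prolyl hydroxylase, 0.36 (SE 0.20, adjusted p = 0.487). In the males alone 7 of the 12 were higher at this raw p and 3 passed the adjusted one (*P4HA1*, *PLOD2* and *CRTAP*, adjusted p = 0.0413, 0.0394 and 0.0287, edgeR), where 14.6% of all genes were higher at this raw p. The females alone gave 0 of 12 in either direction, where 10.3% of all genes had such a p-value, and without IR pig 14 there were 3 higher and 0 lower, where 10.3% and 6.38% of all genes were.

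Markers of the cells that carry basement membranes, and of other cells the samples could hold, were compared beside these results in the scar zone. Over all genes the shares at the same raw p were 6.57% higher and 4.64% lower in all pigs, 10.3% and 6.38% without IR pig 14, 5.4% and 4.92% in the females alone, and 14.6% and 12.3% in the males alone. The 9 endothelial markers with a line summed to 284 to 366 TPM in the IR scar zone and 311 to 363 TPM in the sham scar zone, and 0 of 9 had a raw p of 0.05 or less in either zone. Without IR pig 14, 2 of them were lower in the scar zone, and the females alone gave 0 of 9. The 10 mural cell markers summed to 414 to 909 TPM in IR and 430.5 to 614 TPM in sham scar zones, with 1 of 10 higher, 2 higher without IR pig 14, 0 in the females alone, and 1 higher and 1 lower in the males alone. The 8 cardiomyocyte markers with a line summed to 54732 to 61132 TPM in IR and 51340.3 to 62436 TPM in sham scar zones, with 0 of 8 at that p-value, with or without IR pig 14. In the males alone 3 of these 8 were lower, *TNNI3* (-1.01, adjusted p = 0.0342), *ACTC1* (-1.12, adjusted p = 0.111) and *PLN* (-0.71, adjusted p = 0.0542, edgeR), and in the females 1 was higher, *PLN* at 1.09 (adjusted p = 0.312), and 1 lower, *TNNT2* (adjusted p = 0.449).

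Fibroblast markers were higher in IR scar zones at that p-value for 4 of 10 genes, where 6.57% of all genes were, and positive for 10 of 10 (median log2 fold change 0.92). In the males alone 10 of 10 were higher and passed the adjusted p-value, with a median of 1.74, whereas in the females alone 10 of 10 were negative, with a median of -0.38, and *PDGFRA*, *DCN*, *COL1A2* and *COL3A1* were lower at this raw p, where 4.92% of all genes were, with none past the adjusted p-value (edgeR). Without IR pig 14, 9 of 10 were higher, where 10.3% of all genes were, and the share of all genes higher in the males alone was 14.6%.

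Leucocyte markers summed to 139 and 117 TPM in the scar zone of the IR males, 47.6 and 53.4 TPM in that of the IR females and 32.7 to 77.4 TPM in that of sham pigs. Of the 8 tested in all pigs, 0 had a raw p of 0.05 or less, and without IR pig 14 1 was higher. Shares over all genes in each fit are those given above for the endothelial and other markers. The females alone gave 0 of 8, and the males alone 5 of 9 higher, among them *CD68* (1.49, adjusted p = 0.0213) and *CSF1R* (0.71, adjusted p = 0.0444, edgeR), both genes of macrophages, which passed the adjusted p-value. Schwann cell markers gave 0 of 8 in all pigs, 3 of 8 higher without IR pig 14, 1 of 8 higher in the females alone and 2 of 9 higher in the males alone. Adipocyte markers gave 1 of 5 lower in all pigs, 1 of 6 higher and 1 lower without IR pig 14, 0 of 5 in the females alone and 1 of 6 lower in the males alone. None of the endothelial, mural, cardiomyocyte and fibroblast markers was below 0.1 TPM in all libraries of a group. The part of cell composition in the values of the basement membrane genes was not tested.

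The 8 genes varied together only in part. Over the 16 libraries, after subtraction of each group's mean log2 CPM, 24 of the 28 pairs had a positive Pearson correlation, from -0.25 to 0.82 with a median of 0.33. The strongest pairs were *LAMA4* with *LAMB1* (0.82), *LAMB2* with *HSPG2* (0.79), *COL4A2* with *LAMB2* (0.79), *COL4A2* with *HSPG2* (0.77) and *LAMC1* with *NID1* (0.76). *LAMB1* with *LAMB2* and *COL4A2* with *LAMA4* had the lowest (both -0.25). The zones of a pig share an animal and all genes of a library share its scaling, so these values describe the libraries and carry no test.

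A score over the 8 genes, the mean of their standardized deviations from the group mean in each library, was lowest in the sham border zone of pig 4, at -1.65, and next lowest in the sham scar zone of pig 12, at -0.70. Of genes listed by symbol and outside the 8, those whose deviations were most like this score were *FUT2* (Pearson r = 0.95 over 16 libraries), *STARD13* (0.87), *SDK1* (0.86), *CAPSL* (0.85) and *ARID1A* (0.84). Without the libraries of pig 4 and pig 12 just named, r over the 14 left was 0.92, 0.90, 0.79, 0.75 and 0.78 in that order. *FUT2* rested on 1.13 to 24.9 and *CAPSL* on 3.06 to 27.7 estimated counts per library, so their values carry large counting error, whereas *STARD13* had 274 to 805 counts.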

How the data were processed

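RNA was extracted from scar and border zone myocardium of 8 pigs, and stranded poly(A) libraries were sequenced as 75 bp paired reads on an Illumina HiSeq. The submitters' processing notes name Trimmomatic 0.33, HISAT2 2.0.5 and kallisto 0.43.1. The authors quantified reads with kallisto against the Ensembl pig cDNA set and summed transcripts to genes, and they deposited a table of estimated counts and a table of TPM, with no further normalization. The genome build is not given in the sources used here. The 22629 lines carried 15095 symbols and 7534 Ensembl IDs, of which 915 matched a symbol in a reference table. No column of a sample outside the series was present (0 unused columns). *CLDN5*, *MYH6*, *TTN*, *S100B* and *AQP7* of the marker lists had no line.

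Estimated counts were rounded to whole numbers, filtered with filterByExpr (minimum count 10, minimum total 15), scaled by TMM and tested with the quasi-likelihood test of edgeR 4.0.16 in R 4.3.3, with surgery as the only term in each zone and p-values adjusted by Benjamini-Hochberg over every gene in the fit. Calls needed an adjusted p of 0.05 or less and a fold change of at least 2. CPM used TMM over the 16 libraries, and log2 CPM a prior count of 2. Single genes and ratios (TPM + 0.1) were compared by two-sided exact permutation tests, whose smallest p for 4 against 4 pigs is 0.0286. Alternatives were DESeq2 1.42.0, upper-quartile scaling, no filter, limma 3.58.1 on log2(TPM + 1) or log2(TPM + 0.1) for genes with at least 1 TPM in 4 libraries or without that filter, sex as a covariate, 1 factor of unwanted variation from 5000 control genes, 1 fit of all 16 samples, other call rules and leaving out each pig. The study used factors of unwanted variation in its own tests, in a number not given in the sources used here, so none was in the main model. Python 3.11.15 with NumPy 2.4.6 made the tables. The fits were checked on simulated data whose planted changes were far larger than those of the members, so the check does not cover changes of that size.

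Scar and border samples with the same number came from the same pig. Their deviations from the group means correlated at 0.354 to 0.692 over 14278 genes in the 8 pigs, so the pig was used as a replicate block in further fits of the zone comparisons. Replicates of a group are separate pigs. At the depths here 3 counts correspond to 0.0612 to 0.194 CPM, a floor that covers counting error only. Log2 CPM of any pair of libraries correlated at 0.926 to 0.991. The genes named are the members, the 3 genes of each of 3 pathway lists with the lowest p in the scar zone, the marker lists and the 5 genes most like the members. Of the genes this rule names, 1 is not reported here. The members and lists were chosen with earlier results of these data known. The fits within each sex, the counts of the lists without IR pig 14, the difference between sexes and the ratios to *COL1A1* and *COL3A1* were chosen after seeing the data. The sequences of the genes and their positions were not analysed here.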

Additional observations from a re-analysis of the deposited data

Results flagged for a closer look

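*HSPG2* in the border zone of IR pig 11 stood far below the other 3 IR border zone libraries, at 765 CPM against 1069.5 to 1139 CPM. On the log2 CPM scale, on which groups were tested, the gap to the nearest library was 0.842 of the range of the group, just above Dixon's 95% critical value of 0.829 for 4 samples, and on the linear CPM scale it was 0.814, below that value. On the log2 scale this was the only such library among 40 groups of 4 tested, over 8 genes and 2 ratios, and chance gives about 1 in 20 groups. The same pig had 955 CPM in its scar zone, the lowest of the 4 IR pigs there.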

How the results depend on the processing

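No member passed the adjusted p-value of 0.05 in any of the 568 member values computed under an alternative (lowest adjusted p = 0.38), nor in the added fits within a sex (lowest 0.298) or of the difference between sexes (lowest 0.184). The sign differed from that reported in 84 of the 568. Leaving out 1 pig changed the sign of 37, and 42 of the other 47 were on the TPM scale. No gene was called in the 5 comparisons. DESeq2 called 52 in the scar zone (37 higher, 15 lower), 2 in the border zone, 4 between zones in IR and 1 in sham pigs. Limma on log2(TPM + 1) called 3 in the scar zone, 2 between zones in IR and 1 in sham pigs, on log2(TPM + 0.1) 1 and 2 in the first 2 of these, and without a filter 1, 2 and 1. At a raw p of 0.05 or less with a fold change of 2 there were 470 genes in the scar zone, 109 in the border zone, 196 for the difference between zones, 250 between zones in IR and 14 in sham pigs, and without the fold change 1572, 519, 317, 617 and 113. Females alone gave 1 gene called in the scar and 2 in the border zone, with 2 members at that raw p in the scar zone, and males alone gave 623 in the scar zone. Without any 1 pig, 0 genes were called in each comparison.

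In the scar zone, log2 differences on log2(TPM + 1), with or without the filter, were 0.12 for *COL4A2*, 0.12 for *LAMA4*, 0.12 for *LAMB1*, 0.00057 for *LAMB2*, 0.012 for *LAMC1*, 0.046 for *NID1* and 0.10 for *HSPG2*, and with log2(TPM + 0.1) they were 0.12, 0.12, 0.13, 0.00058, 0.012, 0.047 and 0.10. In the border zone *HSPG2* was at 0.054 and 0.055 on these scales, *COL4A2* at -0.0028 and *LAMB2* at -0.011 with 1 factor of unwanted variation, and *LAMB2* at -0.013 with upper-quartile scaling. For the difference between zones, TPM gave 0.053 and 0.053 for *COL4A2*, 0.039 and 0.040 for *LAMC1* and 0.047 and 0.047 for *HSPG2*. Between the zones of IR pigs, *COL4A2* was at -0.013 with DESeq2 and -0.0050 with no filter on low counts, and on TPM *LAMB2* was at 0.117 and 0.118 and *NID1* at 0.124 and 0.125. In sham pigs TPM gave 0.00029 and 0.00050 for *LAMB1*. The cause of these changes was not tested. With the pig as a replicate block the difference between zones ran from -0.20 to 0.07, and the block changed no call.

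Without 1 pig in turn, scar zone log2 fold changes ranged as -0.13 to 0.061 for *LAMA4*, -0.14 to 0.070 for *LAMB1* and -0.17 to 0.041 for *HSPG2*. Border zone values ranged as -0.086 to 0.10 for *COL4A2*, -0.15 to 0.036 for *LAMA4*, -0.22 to 0.0078 for *LAMB1*, -0.10 to 0.081 for *LAMB2*, -0.15 to 0.020 for *LAMC1* and -0.19 to 0.11 for *HSPG2*. The difference between zones ranged as -0.20 to 0.065 for *COL4A2*, -0.063 to 0.074 for *LAMA4*, -0.023 to 0.17 for *LAMB1*, -0.12 to 0.0058 for *LAMC1*, -0.10 to 0.15 for *NID1*, -0.082 to 0.11 for *NID2* and -0.21 to 0.097 for *HSPG2*. Between the zones of IR pigs the values were -0.026 to 0.019 for *COL4A2*, -0.036 to 0.15 for *LAMB1*, -0.11 to 0.084 for *LAMB2* and -0.16 to 0.075 for *NID1*, and of sham pigs -0.063 to 0.21 for *COL4A2*, -0.11 to 0.041 for *LAMB1* and -0.048 to 0.14 for *NID2*. The IR minus sham difference of the log2 ratio of *LAMB1* to *LAMB2* ran from -0.045 to 0.33 in the scar zone, negative only without IR pig 9, and from -0.28 to 0.0035 in the border zone, above 0 only without IR pig 2. That difference for *NID1* to *NID2* ran from -0.37 to -0.21 and from -0.42 to -0.24.

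With 4 pigs a group, the 95% intervals of the members spanned fold changes from 0.697 to 1.35 in the scar zone. Each group held 2 pigs of each sex, and the fits within a sex rest on 2 pigs against 2.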
